A study of Mus musculus with 2 samples.

Results

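Aminoacyl-tRNA synthetases are the enzymes that join each amino acid to its tRNA, and their transcripts were followed here in mouse vascular smooth muscle cells (VSMCs) infected with a Klf5 adenovirus. Members were taken by gene name: every symbol made of 1 letter followed by ars or ars2, together with Eprs, Farsa, Farsb, Tarsl2, Aimp1 and Aimp2. This gave 39 of the 11263 genes in the deposited table, 37 synthetases and 2 scaffold proteins. The mitochondrial methionine enzyme Mars2 was not analysed here.

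The study examined how Klf5, a Krüppel-like zinc finger transcription factor, affects VSMCs, which give the aorta its contractile wall. RNA of primary aortic VSMCs was sequenced from 1 culture labelled Ad-GFP, infected with the control adenovirus, and 1 labelled Ad-K5. The latter was infected with the adenovirus that encodes Klf5, and both infections lasted 36 hours. The titles give these infections, but the treatment text of both samples instead names a lentiviral Sirt6 knockdown in LY1 cells. The strain is given as C57BL/6 for Ad-GFP and as C57BL/7 for Ad-K5, so a strain difference and the infection cannot be told apart. With 1 library per condition, no difference below has a replicate check, and none was tested. Values are FPKM, fragments mapped to a gene scaled by transcript length and library size, and a ratio is the difference of log2(FPKM + 1), Ad-K5 minus Ad-GFP, so that a ratio above 0 means a higher level in Ad-K5. Fold changes are on that same scale, which understates the change of low genes.

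Most synthetases recognise 1 amino acid and the tRNAs that read its codons, and the charged tRNA is then handed to an elongation factor and the ribosome. The cytosol and the mitochondrion are charged by separate enzymes, which in mammals are all encoded in the nucleus, and most mitochondrial enzymes have a symbol ending in 2. Several cytosolic enzymes are held in a multi-synthetase complex by the scaffolds Aimp1, Aimp2 and Eef1e1, and many cytosolic synthetase genes are known targets of Atf4, the transcription factor of the amino acid response.

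Klf5 itself was at 1.76 FPKM in Ad-GFP and 2.62 FPKM in Ad-K5, a ratio of 0.39, which follows the titles in direction but is under 1.5-fold. Both levels are low, and the ratio lies between percentiles 5 (-0.60) and 95 (0.56) of all genes. It does not by itself bear out the titles. Among the smooth muscle markers, Acta2 was at 229 FPKM in Ad-GFP and 201 FPKM in Ad-K5, Cnn1 was at 0.782 and 0.860 FPKM, and the 7 markers of 8 that were in the table summed to 308 and 279 FPKM, most of it Acta2. Of the 6 smooth muscle markers counted, 3 were above 0, Tagln with a ratio of 0.44, Cald1 with 0.24 and Des with 0.0048. The other 3 were below 0, Myl9 with a ratio of -0.31, Smtn with -0.28 and Acta2 with -0.19. The 4 mesothelial markers in the table, of 6 listed, summed to 21.5 FPKM in Ad-GFP and 125 FPKM in Ad-K5, and each was at least 2-fold higher in Ad-K5. Of 4 fibroblast markers listed, 3 were in the table, and Pdgfra was at 13.7 FPKM in Ad-GFP and 4.62 FPKM in Ad-K5, a ratio of -1.39, while Col1a1 was at 518 and 431 FPKM and Dcn at 75.5 and 72.1 FPKM. Of 4 macrophage markers listed, only Cd68 was analysed, at 0.229 FPKM in Ad-GFP and 0.938 FPKM in Ad-K5, and its mean was under 1 FPKM. The 4 endothelial markers were not analysed here. The part of these cell type markers in the values below was not tested. FPKM summed to 278962 in Ad-GFP and 300045 in Ad-K5. The methods give an approximate number of reads per sample, but the values used hold no counts, so the depth of each library could not be checked.

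Of the 39 members, 38 had a mean of at least 1 FPKM and were counted. Nars2, the mitochondrial asparagine enzyme, had a mean of 0.803 FPKM and fell under that minimum, and the next member above it was Wars2, with a mean of 1.44 FPKM. Most synthetase transcripts differed little between the libraries: 36 of the 38 were less than 1.5-fold apart. The scaffold Aimp2 was 1.74-fold higher in Ad-K5, the mitochondrial proline enzyme Pars2 was 1.85-fold lower, and no member reached 2-fold in either direction, except that Pars2 did with a pseudocount of 0.1 in place of 1. Over all 10157 genes counted, 4.44% were at least 1.5-fold higher in Ad-K5 and 5.48% were at least 1.5-fold lower, against 2.63% of the members in each direction, while 0.975% and 0.679% of all genes were at least 2-fold higher and lower. With 1 gene in each direction, the members' share was near the background.

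The members as a group lay slightly to the Ad-K5 side. Their median ratio was 0.09, against -0.02 for all genes, and 27 of the 38 had a ratio above 0, a share of 71.1% against 47.9% of all genes. When both libraries were scaled to a common FPKM sum, which moved the median of all genes by -0.09, the members' median was -0.01 and 18 of the 38 stayed above 0. The members' median thus moved by a similar amount to that of all genes. The share of all genes above 0 was not computed under that scaling. This count and the later ones under the common sum therefore have no background share beside them. Summed over the 39 members, FPKM was 866 in Ad-GFP and 986 in Ad-K5, which was 0.311% and 0.329% of all FPKM in the table.

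**Figure D1:**
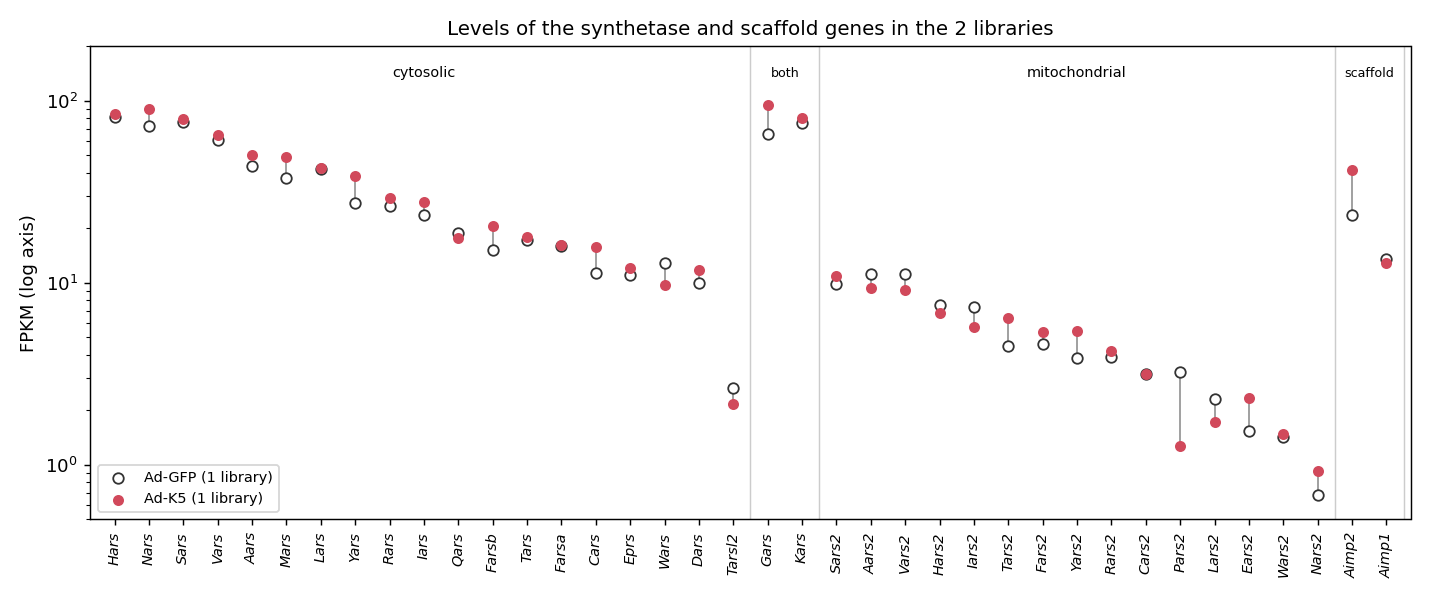
FPKM (log axis) of 38 of the 39 members in the Ad-GFP library (open circles) and the Ad-K5 library (filled circles), 1 library each, with the genes ordered by level within cytosolic, dual, mitochondrial and scaffold groups; grey lines join the values of 1 gene. Cytosolic and dual enzymes reached 81.3 FPKM in Ad-GFP and 94.2 FPKM in Ad-K5, mitochondrial enzymes stayed at or below 11.2 and 10.9 FPKM, and the widest gaps were those of Pars2 and Aimp2.

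Levels differed more between the compartments than between the libraries. Because FPKM is per length of transcript, levels could be compared between genes. The median level of the 19 cytosolic enzymes was 23.7 FPKM in Ad-GFP and 27.9 FPKM in Ad-K5, whereas the median of the 16 mitochondrial enzymes was 4.19 and 4.81 FPKM. Of the 21 enzymes of the cytosol or of both compartments, 18 in Ad-GFP and 19 in Ad-K5 were above every mitochondrial enzyme. In summed FPKM, the cytosolic enzymes went from 607 to 679, Gars and Kars together from 141 to 175, and the mitochondrial enzymes from 81.2 to 78.0.

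Hars, the histidine enzyme, was the most abundant member in Ad-GFP at 81.3 FPKM and was at 84.2 FPKM in Ad-K5. Sars, for serine, was at 76.5 and 79.5 FPKM, and Vars, for valine, at 60.7 and 65.2 FPKM. Lars, for leucine, which is also known as a leucine sensor of the mTORC1 kinase, was at 42.3 and 42.6 FPKM. These abundant enzymes had ratios of 0.01 to 0.10, and all of these ratios were below 0 under the common sum. Nars, for asparagine, was at 72.8 FPKM in Ad-GFP and 89.5 FPKM in Ad-K5, a ratio of 0.29.

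By compartment, the 19 cytosolic enzymes had a median ratio of 0.12, with a range from -0.37 to 0.47, and 16 were above 0, or 10 of 19 with both libraries at a common FPKM sum. The 6 that crossed 0 under that scaling were Lars, Farsa, Hars, Sars, Tars and Vars. The 15 mitochondrial enzymes counted had a median of 0.0074, with a range from -0.89 to 0.44, and 8 were above 0, or 6 of 15 under the common sum. Over all genes, 47.9% were above 0 as deposited, and the share under the common sum was not computed. The cytosolic median was 0.11 above the mitochondrial one, a gap smaller than the range within either compartment, and 0.26 above it among genes whose mean reached 5 FPKM. None of the cytosolic enzymes was 1.5-fold apart between the libraries.

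**Figure D2:**
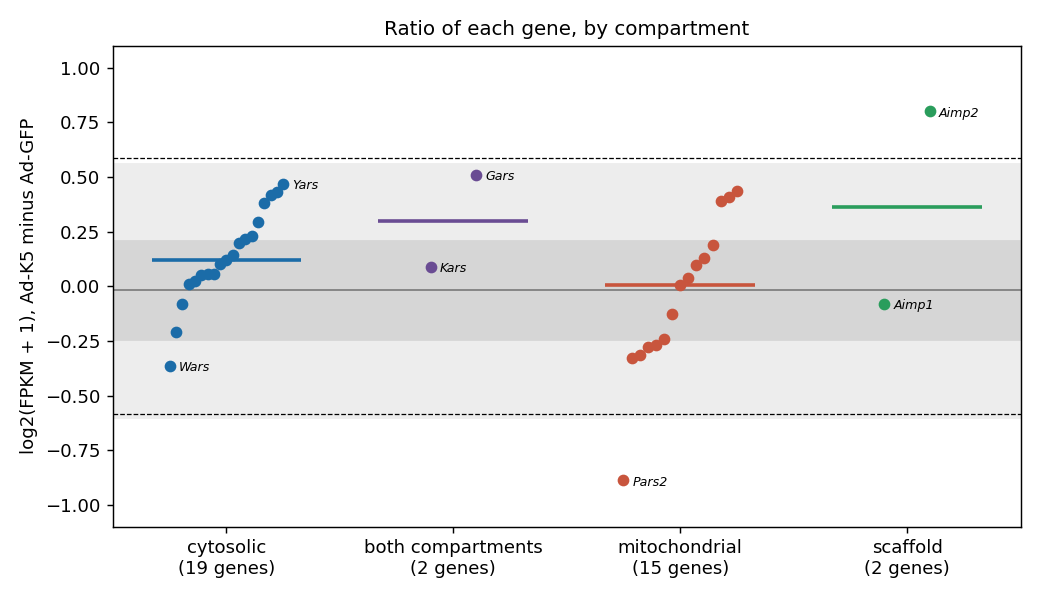
Ratio, as log2(FPKM + 1) in Ad-K5 minus Ad-GFP (1 library each), for the 38 members counted, by compartment; 1 point is 1 gene, coloured bars are medians, dashed lines mark 1.5-fold, the grey line is the median of all genes (-0.02), and the shaded bands hold the middle of all genes, from -0.25 to 0.21 (dark, percentiles 25 to 75) and from -0.60 to 0.56 (light, percentiles 5 to 95). Cytosolic and mitochondrial ranges overlapped widely, and only Aimp2 (0.80) and Pars2 (-0.89) lay past 1.5-fold.

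Among the cytosolic enzymes, those furthest to the Ad-K5 side charged tyrosine, cysteine, phenylalanine and methionine. Yars, the tyrosine enzyme, was at 27.5 FPKM in Ad-GFP and 38.4 FPKM in Ad-K5, a ratio of 0.47. Cars, the cysteine enzyme, was at 11.4 and 15.7 FPKM, a ratio of 0.43. Mars, the methionine enzyme, which also charges the initiator tRNA, was at 37.5 and 49.1 FPKM, a ratio of 0.38. These 3 ratios stayed above 0 in every alternative tried.

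The phenylalanine enzyme is built from 2 different subunits, and their transcripts differed in ratio. Farsa, the alpha subunit, was at 15.9 FPKM in Ad-GFP and 16.2 FPKM in Ad-K5, a ratio of 0.02. Farsb, the beta subunit, was at 15.1 and 20.5 FPKM, a ratio of 0.42. The subunits were thus at nearly the same level in Ad-GFP, with Farsb above Farsa in Ad-K5.

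On the Ad-GFP side stood Wars, Tarsl2 and Qars, the 3 cytosolic enzymes with a ratio below 0. Wars, the tryptophan enzyme and a known target of interferon gamma, was at 12.8 FPKM in Ad-GFP and 9.74 FPKM in Ad-K5, a ratio of -0.37. Tarsl2, a second threonine enzyme of the cytosol, was at 2.64 and 2.15 FPKM, a ratio of -0.21, and was the lowest cytosolic enzyme in both libraries. Its partner for the same amino acid, Tars, was at 17.1 and 17.9 FPKM, a ratio of 0.06. Qars, for glutamine, was at 18.8 and 17.7 FPKM, a ratio of -0.08.

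The other 5 cytosolic enzymes had ratios of 0.12 to 0.23. Aars, for alanine, was at 43.7 FPKM in Ad-GFP and 50.3 FPKM in Ad-K5. Rars, for arginine, was at 26.3 and 29.2 FPKM. Iars, for isoleucine, was at 23.7 and 27.9 FPKM, and its ratio of 0.23 was the highest of these 5. Eprs is a fused enzyme that charges both glutamate and proline in the cytosol, and it was at 10.9 and 12.0 FPKM. Dars, for aspartate, was at 9.90 and 11.7 FPKM.

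A pair of genes, Gars and Kars, each supply the enzyme of both compartments, for glycine and for lysine, from alternative forms of the same gene. Gars (ENSMUSG00000029777.10, chromosome 6 from 55038007 to 55079500 on GRCm38, plus strand) was at 65.8 FPKM in Ad-GFP and 94.2 FPKM in Ad-K5, a ratio of 0.51, or 1.42-fold. It was the highest ratio among all synthetases, just under the 1.5-fold bound, and made Gars the most abundant member in Ad-K5. Kars was at 75.5 and 80.4 FPKM, a ratio of 0.09 that became -0.01 under the common sum. The gene-level values do not separate the cytosolic from the mitochondrial form of either gene.

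The multi-synthetase complex holds Eprs, Iars, Lars, Mars, Qars, Rars, Kars and Dars together with the scaffolds. Its 8 synthetases had a median ratio of 0.13, with 7 above 0. The 13 cytosolic or dual enzymes outside it had a median of 0.10, with 11 above 0, while 47.9% of all genes were above 0. Under the common sum these counts were 5 of 8 and 6 of 13. The enzymes of the complex therefore differed from the free enzymes by less than the range within either set. Their transcripts ranged from Dars at 9.90 FPKM to Kars at 75.5 FPKM in Ad-GFP, so that parts of 1 complex were not at equal transcript levels.

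The scaffolds did not move alike. Aimp2 (ENSMUSG00000029610.13, chromosome 5 from 143902704 to 143909847 on GRCm38, minus strand), which binds several enzymes of the complex, was at 23.6 FPKM in Ad-GFP and 41.8 FPKM in Ad-K5, a ratio of 0.80. Aimp1, the precursor of the secreted cytokine EMAP II, was at 13.5 and 12.7 FPKM, a ratio of -0.08. The third scaffold, Eef1e1, is not a member by name and belongs to the list of other charging genes. It was at 5.60 and 12.8 FPKM, a ratio of 1.06 and past 2-fold.

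Exons of Aimp2 overlap those of Eif2ak1, the kinase HRI, on the opposite strand, and whether counting used the strand is not stated. Eif2ak1 was at 12.9 FPKM in Ad-GFP and 13.0 FPKM in Ad-K5, a ratio of 0.01. Exons of Mars likewise overlap those of Ddit3, a stress-induced transcription factor, on the opposite strand, and Ddit3 was at 13.5 and 16.2 FPKM. The neighbours Hars and Hars2 lie head to head and overlap, and Aars overlaps Exosc6 on the same strand. Tarsl2 also overlaps another gene on the same strand. Exons of Aimp1, Cars2, Ears2, Fars2, Iars2 and Yars overlap those of other measured genes on the opposite strand. How reads were shared between these genes was not tested.

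The mitochondrial enzymes split into genes on either side of 0. Pars2 (ENSMUSG00000043572.7, chromosome 4 from 106651069 to 106655282 on GRCm38, plus strand), which charges mitochondrial proline tRNA, was at 3.21 FPKM in Ad-GFP and 1.27 FPKM in Ad-K5, a ratio of -0.89. Both levels are low, and the ratio depended on the pseudocount, at -1.27 with 0.1 and -0.39 with 5 in place of 1, and the latter is under 1.5-fold. Its cytosolic counterpart Eprs had a ratio of 0.12.

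Mitochondrial enzymes for isoleucine, leucine, valine, alanine and histidine also had lower levels in Ad-K5, each by less than 1.5-fold. Iars2 was at 7.32 FPKM in Ad-GFP and 5.69 FPKM in Ad-K5, a ratio of -0.31, and Lars2 at 2.28 and 1.71 FPKM, a ratio of -0.28. Vars2 and Aars2, the most abundant mitochondrial enzymes in Ad-GFP at 11.2 FPKM each, were at 9.13 and 9.32 FPKM in Ad-K5. Their ratios were -0.27 and -0.24. Hars2 was at 7.51 and 6.79 FPKM, a ratio of -0.13.

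On the other side, Tars2, Yars2 and Ears2 had the highest ratios among mitochondrial enzymes. Tars2, for threonine, was at 4.49 FPKM in Ad-GFP and 6.43 FPKM in Ad-K5, a ratio of 0.44. Yars2, for tyrosine, was at 3.85 and 5.44 FPKM, a ratio of 0.41. Ears2, for glutamate, was at 1.53 and 2.31 FPKM, a ratio of 0.39. All 3 had ratios above 0 in every alternative that kept them.

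The remaining mitochondrial enzymes lay between. Fars2, for phenylalanine, was at 4.61 FPKM in Ad-GFP and 5.39 FPKM in Ad-K5, a ratio of 0.19. Sars2, for serine, was at 9.84 and 10.9 FPKM and was the most abundant mitochondrial enzyme in Ad-K5. Rars2, for arginine, was at 3.89 and 4.23 FPKM, and Nars2, under the minimum, at 0.680 and 0.925 FPKM. Wars2, for tryptophan, was at 1.41 and 1.48 FPKM and Cars2, for cysteine, at 3.13 and 3.15 FPKM. The ratios of Wars2 (0.04) and Cars2 (0.0074) were below 0 under the common sum.

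The cytosolic and mitochondrial enzymes could be paired for 16 amino acids, with Eprs standing for both glutamate and proline and Farsa for phenylalanine. The cytosolic level was above the mitochondrial one in both libraries for 16 of 16. The median excess was 6.09-fold in Ad-GFP and 6.74-fold in Ad-K5, computed from FPKM without a pseudocount. The excess was 107-fold for asparagine in Ad-GFP, the widest of the pairs, with leucine next at 18.5-fold. The asparagine value rests on Nars2 at 0.680 FPKM, and Nars2 was kept in all pair counts although under the minimum of 1 FPKM. For threonine in Ad-K5 the excess was 2.78-fold.

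In ratio, the cytosolic enzyme lay above its mitochondrial counterpart for 11 amino acids and below it for 5. Both were above 0 for 8, the cytosolic ratio was above 0 and the mitochondrial one below 0 for 7, and tryptophan was the 1 amino acid with the opposite arrangement. These signs depended on the scaling: under the common sum both were above 0 for 4, the cytosolic 1 alone for 5, the mitochondrial 1 alone for 3 and neither for 4, tryptophan among the last, while the cytosolic ratio still lay above the mitochondrial for 11. The largest gap was 1.01 for proline, where Eprs and Pars2 were compared, and the gap for isoleucine was 0.54. Threonine (-0.38) and tryptophan (-0.40) had the largest gaps with the mitochondrial enzyme above. The tyrosine enzymes differed by 0.06, with Yars at 0.47 and Yars2 at 0.41, and were the only pair in which both ratios exceeded 0.40.

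**Figure D3:**
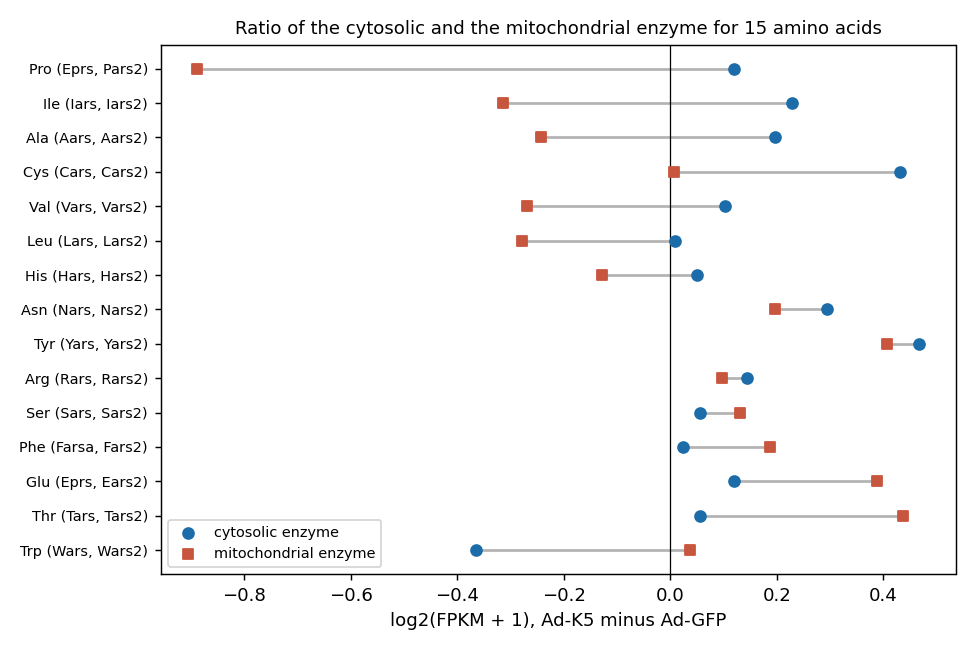
Ratio, as log2(FPKM + 1) in Ad-K5 minus Ad-GFP (1 library each), of the cytosolic enzyme (circles) and the mitochondrial enzyme (squares) for 15 of the 16 amino acids, ordered by the difference. The cytosolic circle lies to the right for 10 of those drawn, by up to 1.01 for proline, and to the left for 5, by up to 0.40 for tryptophan.

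Synthetases also fall into 2 structural classes with unrelated catalytic folds. The 18 class I enzymes counted had a median ratio of 0.10 and the 18 class II enzymes a median of 0.07, with Eprs, a fusion of an enzyme of each class, placed in class I. In each class 13 genes were above 0, or 9 of class I and 8 of class II under the common sum. As deposited, 47.9% of all genes were above 0.

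Because many cytosolic synthetase genes are known Atf4 targets, letters of 3 motifs were searched on both strands in the 250 bases before each start in RefSeq (GRCm38.p6), which had an entry for 29 of the 39 members, Mars under the symbol Mars1. The C/EBP-ATF response element, spelled TGATGNAA, was present in 3 of 29 members (10.3%) and before 3.45% of all 32851 starts, and its holders included Gars and Tars. The E-box CACGTG, the letters bound by Myc and Max, was present in 3 of 29 (10.3%) and before 6.02% of all starts, and its holders included Farsb and Iars. CCNCNCCC, a box of the kind bound by Krüppel-like factors, was present in 15 of 29 (51.7%) and before 45.9% of all starts. The windows below show 30 bases round the TGATGNAA or CACGTG match of these 4 genes, 5′ to 3′ on the strand of the gene, with the match in capitals, and were chosen for printing after the values had been seen. The TGATGNAA matches read as the reverse complement on that strand, and a match is not evidence of binding.
Gars, chr6:55037960-55037989, plus strand, TGATGNAA 30 to 23 bases before the start: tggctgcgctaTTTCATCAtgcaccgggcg
Tars, chr15:11399659-11399688, minus strand, TGATGNAA 15 to 8 bases before the start: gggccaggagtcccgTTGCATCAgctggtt
Farsb, chr1:78488919-78488948, minus strand, CACGTG 39 to 34 bases before the start: ttagacaggcatCACGTGagacagcccaag
Iars, chr13:49682049-49682078, plus strand, CACGTG 69 to 64 bases before the start: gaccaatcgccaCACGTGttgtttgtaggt

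The 2 members past 1.5-fold gave no window: the 250 bases before the Aimp2 start held none of the 3 motifs, and Pars2 had no entry.

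Other genes of tRNA charging and of its use were taken from lists. Of 15 genes that charge by another route, edit or mature tRNA, 14 were counted, with a median ratio of 0.11 and 10 above 0 (8 under the common sum), and Eef1e1 was the 1 past 1.5-fold. Trnt1, which adds the CCA end to tRNA, was at 3.44 and 2.38 FPKM, a ratio of -0.39. Pstk, the kinase that acts on seryl-tRNA for selenocysteine, had a ratio of 0.28. The mitochondrial glutaminyl-tRNA is made by the amidotransferase of Gatb, Gatc and Qrsl1 rather than by a synthetase, and their ratios were 0.14, 0.11 and 0.22.

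The 8 elongation factor genes listed, which include exchange factors such as Tsfm, had a median ratio of 0.20, with 7 above 0 and none past 1.5-fold. Tufm, the mitochondrial factor that carries charged tRNA, was at 33.3 FPKM in Ad-GFP and 44.5 FPKM in Ad-K5, a ratio of 0.41, and its exchange factor Tsfm had a ratio of 0.32. Eef1a1, the cytosolic counterpart of Tufm, had a ratio of 0.26. Eef2, the translocation factor, was at 1811 and 1399 FPKM, a ratio of -0.37.

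Of the 21 genes counted in the amino acid response list, which overlaps the synthetases in known control by Atf4 but holds none of them, 7 were at least 1.5-fold higher in Ad-K5, the median ratio was 0.41 and 19 were above 0, or 17 under the common sum. Over all genes, 4.44% were at least 1.5-fold higher and 47.9% were above 0. Atf4 was at 107 FPKM in Ad-GFP and 197 FPKM in Ad-K5, a ratio of 0.87. The glutathione-degrading enzyme Chac1 had a ratio of 1.07, Psat1, an enzyme of serine synthesis, 1.00, and the stress-induced transcription factor Atf3 0.86. The median of the 19 cytosolic synthetases, at 0.12, lay below that of the response list.

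**Figure D4:**
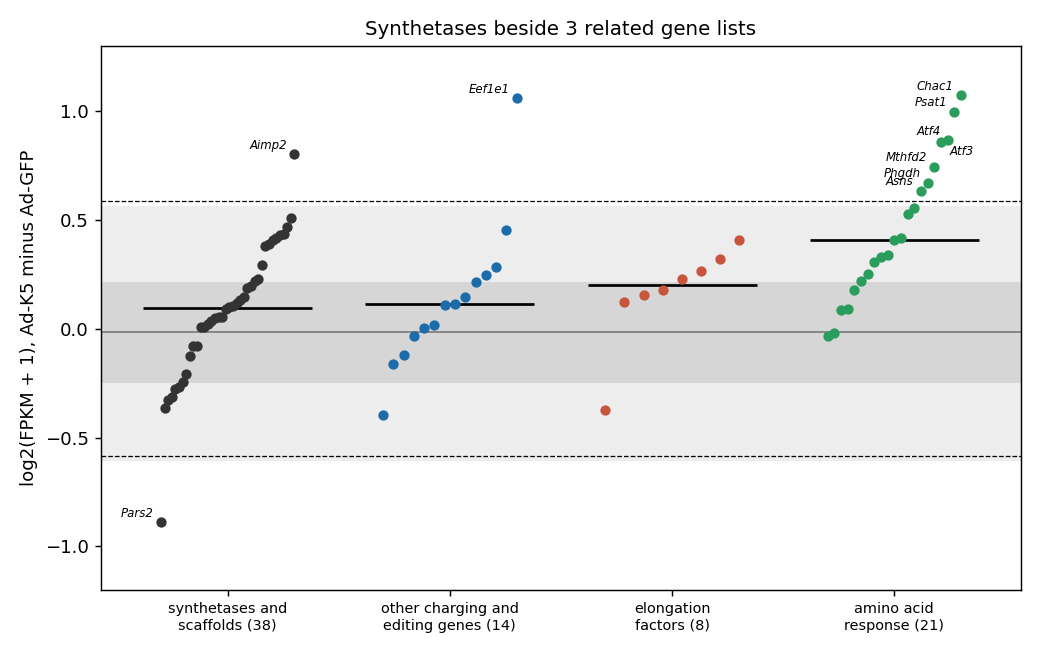
Ratio, as log2(FPKM + 1) in Ad-K5 minus Ad-GFP (1 library each), for the 38 synthetases and scaffolds and for 3 lists of 14, 8 and 21 genes; 1 point is 1 gene, black bars are medians (0.09, 0.11, 0.20 and 0.41), dashed lines mark 1.5-fold and shaded bands are the percentiles 25 to 75 and 5 to 95 of all genes. Past 1.5-fold lie Aimp2 and Pars2 among the members, Eef1e1 in the second list, and 7 genes of the amino acid response.

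Ratios were related to gene length across the whole table. Over the 10142 genes with an exon length, Spearman's rho between ratio and length was -0.26, and over the 38 members it was -0.20, both given as descriptions since genes share the same 2 libraries. The fifth of genes with the shortest exons, 204 to 2429 bases, had a median ratio of 0.12, with 9.27% at least 1.5-fold higher and 3.94% lower, whereas the fifth with the longest had a median of -0.14, with 1.23% higher and 8.92% lower.

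Aimp2, with 1654 exon bases, had the shortest exons of all members, and relative to the median of genes of similar length (1 of 10 equal length bins) its ratio was 0.61 rather than 0.80, still past 1.5-fold. Pars2, with 3094 bases, had -0.91 and Gars, with 3119 bases, had 0.49 by the same measure. Median exon lengths of the compartments were close, at 5272 bases for the cytosolic and 5195 bases for the mitochondrial enzymes, and relative to genes of their length 17 of 19 cytosolic and 8 of 15 mitochondrial ratios were above 0.

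**Figure D5:**
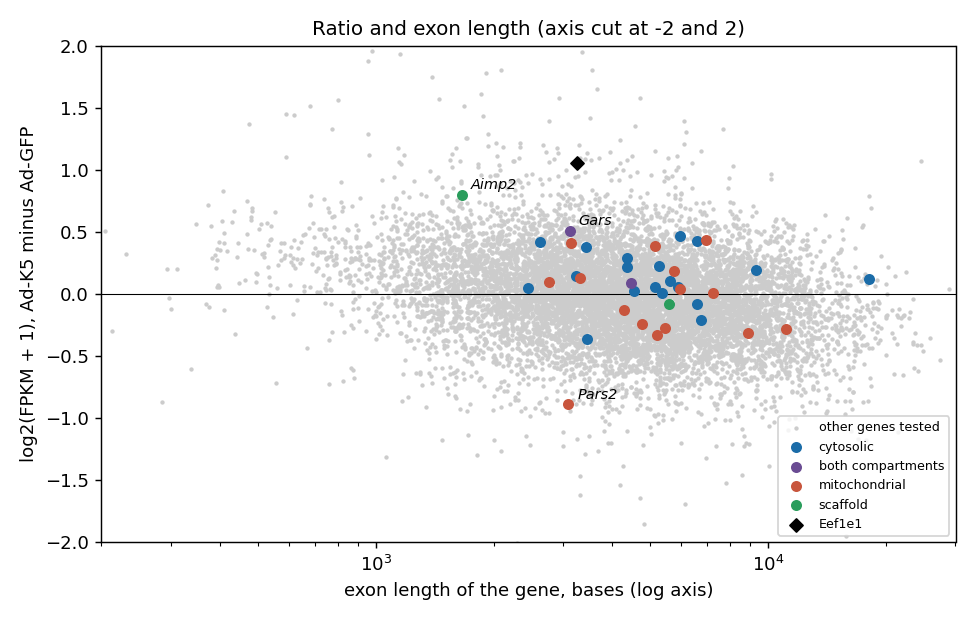
Ratio, as log2(FPKM + 1) in Ad-K5 minus Ad-GFP (1 library each), against exon length in bases (log axis) for the 10142 genes with a length (grey) and the 38 members by compartment, with the scaffold Eef1e1 as a diamond; genes more than 4-fold apart, past the ends of the vertical axis, are not drawn. Ratios fall with length in all genes (rho -0.26), and Aimp2 lies at the short end with 1654 bases.

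The deposited table also holds a pair of group means of log2(FPKM + 1), made by the authors, whose names give no condition. In the first and second of these columns Aimp2 had means of 5.15 and 4.77, Gars 6.59 and 6.33, and Pars2 1.38 and 1.57. These means are not the values of the 2 named libraries. There, log2(FPKM + 1) was 4.62 in Ad-GFP and 5.42 in Ad-K5 for Aimp2, and 2.07 and 1.18 for Pars2. Which values each column averages is unknown, so the columns are not a check of the ratios above. None of the 39 members had its 2 means at least 1.5-fold apart, Aimp2 and Pars2 included, against 1.65% of all 11275 rows.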

How the data were processed

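RNA was sequenced from 1 Ad-GFP and 1 Ad-K5 culture, with dUTP-based libraries per the labels. The authors deposited FPKM for both libraries. Tools in the submitters' processing notes, with no roles given, are STAR 2.5.2b, HISAT2 2.0.5, StringTie and cutadapt, and the build there is mm8, whereas the methods name HTSeq and the human genome. The loci in the table are those of GRCm38, and 11255 of 11275 IDs, without version, were in GENCODE vM21, which gave exon lengths. The labels also name the medium IMDM, which differs from the methods. The deposited columns of the authors' mean log2(FPKM + 1) were printed for 3 genes only, and the deposited log2 fold change, the fold change as a ratio, and the p-value and q-value, which hold the authors' comparison, were not used. No counts were used, so the depth given in the methods was not checked and the counting error is unknown.

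Rows sharing a symbol were summed, giving 11263 genes, and log2(FPKM + 1) ratios were computed for the 10157 genes whose mean reached 1 FPKM, with bounds of 1.5-fold and 2-fold. No p-value was computed. Members are named, apart from items that are not reported here, and of each other list up to 4 genes by size of ratio. Of the marker lists, sums and a few defining genes are printed. Gatb, Gatc and Qrsl1 were added for their role, and Eif2ak1, Ddit3 and Exosc6 for their overlap. The members and lists were chosen with earlier results of these data known. Alternatives were pseudocounts of 0.1 and 5, no minimum or 5 FPKM, centring on the median or trimmed mean, a common FPKM sum, 1 row per symbol (that of the highest mean), and ratios relative to genes in 1 of 10 bins of exon length, the last chosen after seeing the data. Steps were tested on simulated data. Calculations were run in Python 3.11.15 (scipy 1.17.1, pandas 2.3.3, numpy 2.4.6) and plotted with matplotlib 3.10.9.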

Additional observations from a re-analysis of the deposited data

How the results depend on the processing

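Under a common FPKM sum, the members' median ratio was -0.0075 against 0.09, while the median of all genes moved by -0.09. The ratios of 13 of 38 members moved by over 0.1. Among the 29 members with a mean of at least 5 FPKM, the mitochondrial median was -0.13, the cytosolic excess over it 0.26 and the count 1.5-fold lower 0, because Pars2 is under that minimum. The count 1.5-fold lower was also 0 with a pseudocount of 5, and the count 2-fold lower was 1, Pars2, with a pseudocount of 0.1. The count 1.5-fold higher was 1, Aimp2, in every alternative run, and centring, the row choice and no minimum moved no member by over 0.1. No called ratio changed sign. The count of cytosolic enzymes above 0 was 16 of 19, 10 of 19 under the common sum and 17 of 19 relative to length.

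The difference and the remainder of the authors' group means were planned as alternatives and not run, because the column names 1 and 2 name no condition. With 1 library per condition no replicate was left out, and the spread between cultures is unknown. No paired analysis was possible because the groups hold 1 library each.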
